A study of Mus musculus with 8 samples.

Results

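Replication initiation sites (ISs) were examined in 10 very large mouse genes that are linked to common fragile sites, namely Fhit, Wwox, Park2, Magi2, Macrod2, Lrp1b, Immp2l, Auts2, Dlg2 and Csmd1. The genes were chosen by name, and every IS that overlapped a gene's annotated span (GENCODE M1, mm9) by at least 1 bp was taken as a member. The spans ran from 0.913 Mb for Wwox to 2.06 Mb for Lrp1b and covered 15.3 Mb, and they held 125 of the 39116 ISs merged from the WT and Rif1KO conditions and 590 of the 129937 ISs merged from the Rif1KO_shLacZ and Rif1KO_shMcm6 conditions. The ISs came from short nascent strand sequencing (SNS-seq) of the mouse B cell lymphoma line CH12, stimulated with IL4, CD40 and TGF beta. The method size-selects nascent DNA and digests it with lambda exonuclease, which spares RNA-primed strands, so that more reads at a site mean more frequent starts there across the cells. There were 8 libraries, 2 for each of WT cells, Rif1KO cells, Rif1KO cells with an shRNA against LacZ (Rif1KO_shLacZ, the control hairpin) and Rif1KO cells with an shRNA against Mcm6 (Rif1KO_shMcm6). Both hairpin groups therefore lacked Rif1, and according to the study's methods the hairpins were delivered by lentivirus with puromycin selection and the replicates were separately thawed vials of cells. Identity markers of B cells cannot be checked with this assay, which measures no RNA.

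Common fragile sites are chromosome regions that break or form gaps when replication is slowed. They are typically very large, often transcribed genes that replicate late and contain long stretches with few initiation events, so that forks must travel far to finish them. Mcm6 is a subunit of the MCM helicase, which is loaded in excess during licensing and supplies the dormant origins used under stress, while Rif1 is a regulator of replication timing that counteracts the kinase that activates MCM. Which ISs remain in such genes without Rif1, and with less Mcm6 on top, is the question these values address.

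The sequences at the strongest ISs of these genes are shown first, because most of the sites held runs of guanine. A G-run motif was counted where 4 runs of GGG were separated by 1 to 7 bases on either strand (4 runs of CCC when read on the plus strand). The separating bases could be any base, including that of the runs. A long run could thus count as more than 1 run, as in the Dlg2 stretch below. It was present in 73.6% of the 125 member ISs of the WT and Rif1KO table, against 77.4% of all ISs of that table, and in 80.7% of the 590 member ISs of the hairpin table against 77.3%. Consecutive windows of 300 bases along the 10 genes held it in 4.20% of cases, and the central 300 bases of member ISs in 41.4% (46 of 111) in the WT and Rif1KO table, against 47.1% for the centres of all ISs of that table. In the hairpin table the centres of member ISs held it in 17.99% (104 of 578), against 20.4% for all ISs. The stretches below are the motif nearest to the centre of the densest IS in 8 of the genes, with 15 bases on each side, on the plus strand of the reference NCBIM37 (mm9); capitals mark the motif. They were chosen after the values were seen, and Auts2 is left out because its densest IS in each table touches an exon. The stretch of Magi2 is not reported here. The first 6 lie in ISs of the WT and Rif1KO table and the last 2, for Immp2l and Csmd1, in ISs of the hairpin table.
Fhit, chr14:11227074-11227129: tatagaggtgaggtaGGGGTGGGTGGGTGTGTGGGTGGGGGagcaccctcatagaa
Wwox, chr8:117505477-117505534: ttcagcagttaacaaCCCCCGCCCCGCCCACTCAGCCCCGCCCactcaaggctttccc
Park2, chr17:12223559-12223623: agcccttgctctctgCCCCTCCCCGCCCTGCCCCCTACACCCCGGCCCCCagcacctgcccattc
Macrod2, chr2:140365005-140365069: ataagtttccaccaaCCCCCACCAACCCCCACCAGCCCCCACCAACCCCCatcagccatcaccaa
Lrp1b, chr2:41282921-41282973: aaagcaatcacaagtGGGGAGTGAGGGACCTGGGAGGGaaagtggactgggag
Dlg2, chr7:97720280-97720330: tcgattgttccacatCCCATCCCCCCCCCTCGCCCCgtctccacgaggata
Immp2l, chr12:41826717-41826767: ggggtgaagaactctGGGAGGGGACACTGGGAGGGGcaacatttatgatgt
Csmd1, chr8:16073537-16073600: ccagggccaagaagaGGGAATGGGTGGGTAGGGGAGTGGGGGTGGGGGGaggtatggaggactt
Among the stretches shown, the motif lay from 40 bp (Lrp1b) to 274 bp (Immp2l) from the centre of the densest IS. In Wwox, Park2, Dlg2, Immp2l and Csmd1 it lay outside the central 300 bases counted above. The densest IS of Immp2l in the WT and Rif1KO table and that of Lrp1b in the hairpin table had no such motif.

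As a group the 10 genes held fewer ISs per Mb than the genome in every condition. The lists called per condition held 70 ISs in the 10 genes in WT cells, 117 in Rif1KO cells, 438 in Rif1KO_shLacZ cells and 516 in Rif1KO_shMcm6 cells. That was 4.58 per Mb (95% Poisson interval 3.57 to 5.79) in WT cells against 9.79 per Mb genome-wide, and 7.66 per Mb (6.33 to 9.18) against 12.7 in Rif1KO cells. In the hairpin cells it was 28.7 per Mb (26.0 to 31.5) against 38.1 with shLacZ and 33.8 per Mb (30.9 to 36.8) against 43.9 with shMcm6. These intervals, like all others here, cover counting error only and are too narrow, because the authors kept only clustered ISs and PCR copies are not independent molecules. Reads inside ISs numbered 3350255 for WT, 3724571 for Rif1KO, 21071351 for Rif1KO_shLacZ and 23602750 for Rif1KO_shMcm6, so numbers of ISs were compared within each pair and not between the pairs. All values are single consensus lists or pooled densities per condition, so no difference below carries a test across replicates.

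Low numbers were seen in large genes in general. The 190 other protein-coding genes of at least 500 kb had a median of 4.03 ISs per Mb in WT cells, 7.83 in Rif1KO cells, 31.2 in Rif1KO_shLacZ cells and 39.2 in Rif1KO_shMcm6 cells. Of the 10 genes, 4 lay below that median in WT, 7 in Rif1KO, 7 in Rif1KO_shLacZ and 6 in Rif1KO_shMcm6. Immp2l, part of which is unsequenced, was among them. Its 9.73 (Rif1KO) and 34.6 (Rif1KO_shLacZ) ISs per sequenced Mb were above those medians, which are over whole spans. The median of the 10 genes was 4.57, 6.72, 26.5 and 35.4 ISs per Mb in the same order, so it was above the median of large genes in WT cells and below it in the other conditions. The order in WT cells depended on the summary, since the pooled 4.58 per Mb of the 10 genes was below the pooled 6.57 of the 190 other large genes, and their median was also below that of other genes of at least 300 kb, 5.67. Over all 22350 protein-coding gene models the pooled number was 11.5, 13.5, 36.9 and 41.7 ISs per Mb.

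**Figure D1:**
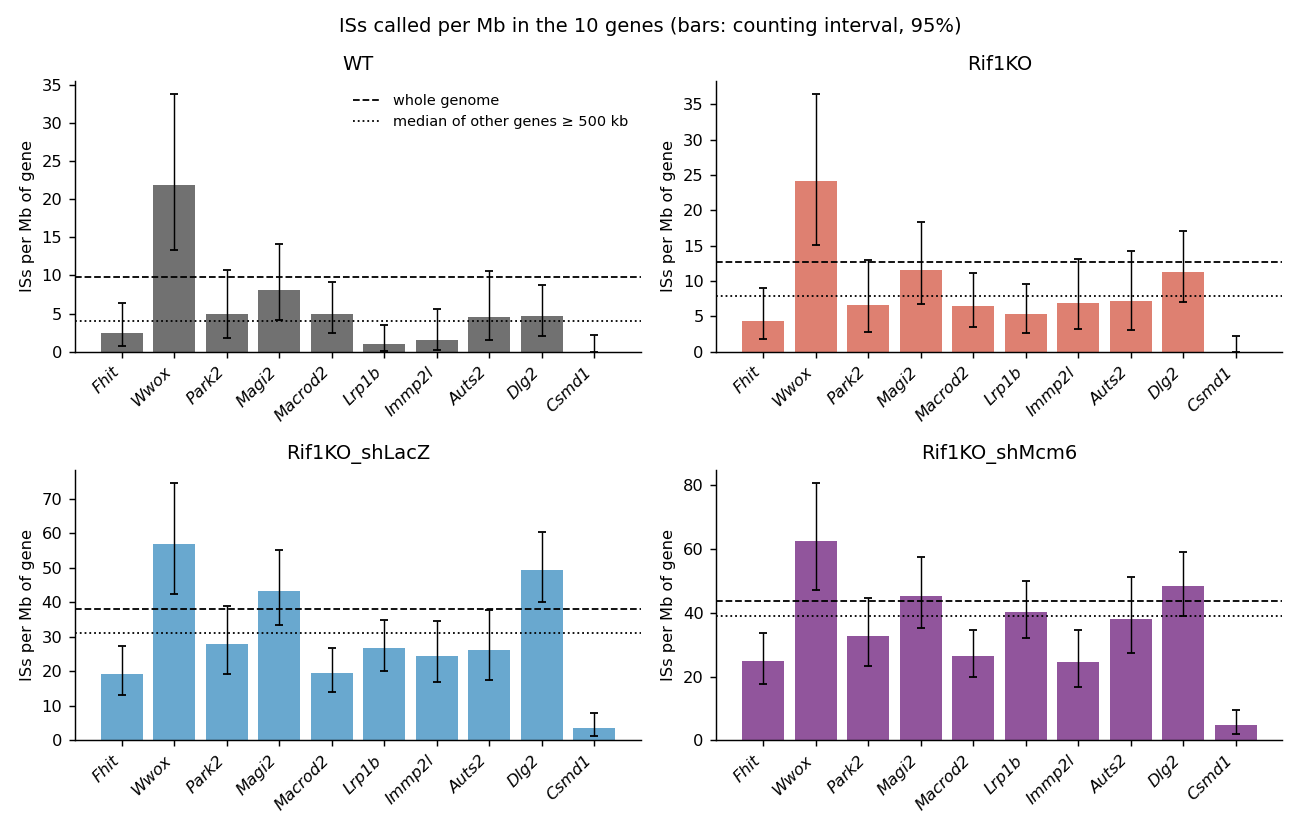
ISs per Mb of gene span (y axis) for each of the 10 genes (x axis) in the lists of the 4 conditions, 1 panel each, with exact Poisson 95% intervals. Dashed lines give the whole genome and dotted lines the median of the 190 other protein-coding genes of at least 500 kb; Wwox was the tallest bar in every panel and Csmd1 the shortest.

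The spread among the 10 genes was wide, and the extremes were the same in every condition. Wwox, an oxidoreductase with WW domains (chr8:116963555-117876608, plus strand), held 20 ISs in WT cells, 22 in Rif1KO cells, 52 in Rif1KO_shLacZ cells and 57 in Rif1KO_shMcm6 cells. Its 21.9 ISs per Mb in WT cells was higher than in 179 of the 190 other large genes, and its 62.4 per Mb in Rif1KO_shMcm6 cells was higher than in 176 of them. Csmd1, a membrane protein that restrains complement (chr8:15892537-17535586, minus strand), held no IS in WT or Rif1KO cells, 6 in Rif1KO_shLacZ cells and 8 in Rif1KO_shMcm6 cells. Its counting interval in the longer hairpin lists, 1.34 to 7.95 per Mb with shLacZ and 2.10 to 9.59 with shMcm6, did not overlap that of any of the other 9 genes. Between Wwox and Csmd1, neighbours in the order had overlapping counting intervals in all 4 conditions.

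Fhit, a hydrolase of dinucleoside polyphosphates (chr14:10382606-11994549, minus strand), was among the poorest of the genes. It held 4 ISs in WT, 7 in Rif1KO, 31 in Rif1KO_shLacZ and 40 in Rif1KO_shMcm6 cells, or 2.48, 4.34, 19.2 and 24.8 per Mb. Park2, the ubiquitin ligase parkin (chr17:11033258-12254519, plus strand, joining 2 gene models of that name), held 6, 8, 34 and 40 ISs in the same order. Both had more ISs in the second condition of each pair, by numbers whose counting intervals overlapped.

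The synaptic scaffolds Magi2 (chr5:18732864-20211867, plus strand, 3 gene models) and Dlg2 (chr7:97650473-99595513, plus strand) were the next richest after Wwox in the hairpin cells. Magi2 held 12 ISs in WT, 17 in Rif1KO, 64 in Rif1KO_shLacZ and 67 in Rif1KO_shMcm6 cells. Dlg2 held 9, 22, 96 and 94 ISs in that order, and was the only one of the 10 genes with fewer ISs in Rif1KO_shMcm6 than in Rif1KO_shLacZ cells. In Rif1KO cells Dlg2 reached 11.3 ISs per Mb (7.09 to 17.1) from 4.63 (2.12 to 8.78) in WT cells.

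Lrp1b, an endocytic receptor of the LDL receptor family (chr2:40450768-42509118, minus strand), had the lowest nonzero number per Mb in WT cells. It held 2 ISs in WT, 11 in Rif1KO, 55 in Rif1KO_shLacZ and 83 in Rif1KO_shMcm6 cells, and thus had more ISs in the second condition of both pairs. In the hairpin pair this was 26.7 ISs per Mb (20.1 to 34.8) with shLacZ and 40.3 (32.1 to 49.99) with shMcm6. Immp2l, a subunit of the peptidase of the inner mitochondrial membrane (chr12:41750677-43056575, plus strand), held 2, 9, 32 and 32 ISs in the same order. A run of 381 kb in Immp2l, from 543 to 924 kb after its start, is unsequenced in mm9 and could yield no aligned read, and per sequenced Mb its numbers were 2.16, 9.73, 34.6 and 34.6.

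Macrod2, which removes ADP-ribose from proteins (chr2:140221045-142218702, plus strand), held 10 ISs in WT, 13 in Rif1KO, 39 in Rif1KO_shLacZ and 53 in Rif1KO_shMcm6 cells. Auts2, a nuclear protein that works with Polycomb complexes in neurons (chr5:131913205-133019214, minus strand), held 5, 8, 29 and 42 ISs in that order. Across the 10 genes the number was higher in Rif1KO than in WT cells in 9 and equal in Csmd1, and higher in Rif1KO_shMcm6 than in Rif1KO_shLacZ cells in 8, equal in Immp2l and lower in Dlg2. The summed numbers were 1.67 times as high in Rif1KO as in WT cells, beside 1.30 times for the genome and 1.48 times for the other large genes. For shMcm6 against shLacZ they were 1.18 times as high, beside 1.15 times for the genome and 1.22 times for the other large genes. In each pair the condition with more reads inside ISs was also the one with more ISs. Those reads are not a measure of library depth, whose part in these numbers was not tested.

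Within each pair, the longest stretch without any called IS was shorter in most of the genes in the condition with the longer list. The longest such stretch in a gene had a median over the 10 genes of 858 kb in WT, 619 kb in Rif1KO, 316 kb in Rif1KO_shLacZ and 206 kb in Rif1KO_shMcm6 cells. The exceptions were Csmd1, without ISs in the first pair, and Immp2l and Wwox, whose longest stretches were longer with shMcm6 than with shLacZ (114 against 105 kb in Wwox). In WT cells the longest stretch took up a median of 56.3% of the gene, against 72.5% (507 kb) in the 190 other large genes and 98.8% in the 12 other genes linked to fragile sites that are described last. Macrod2 had an uninterrupted 1545 kb without an IS in WT cells, from 365 to 1910 kb after its start, and 1048 kb in Rif1KO cells. Its longest stretch was 365 kb in the Rif1KO_shLacZ list and 306 kb in the Rif1KO_shMcm6 list. In Lrp1b the first 1193 kb from the start held no IS in WT cells, and the first 706 kb held none in Rif1KO cells. In Fhit the last 813 kb held none in WT cells, and the longest stretch was 200.5 kb in Rif1KO_shMcm6 cells.

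Csmd1 had the longest stretches in the hairpin cells, 925 kb with shLacZ and 719 kb with shMcm6. Its 8 ISs in the Rif1KO_shMcm6 list formed 4 pairs along the gene. Immp2l came next in the hairpin lists, 504 kb with shLacZ and 626 kb with shMcm6, and the unsequenced 381 kb lay inside both. Dlg2, with the most ISs, had stretches of only 177 kb in both hairpin lists. An IS-free stretch says only that no clustered peak was called there, since the authors removed isolated peaks.

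**Figure D2:**
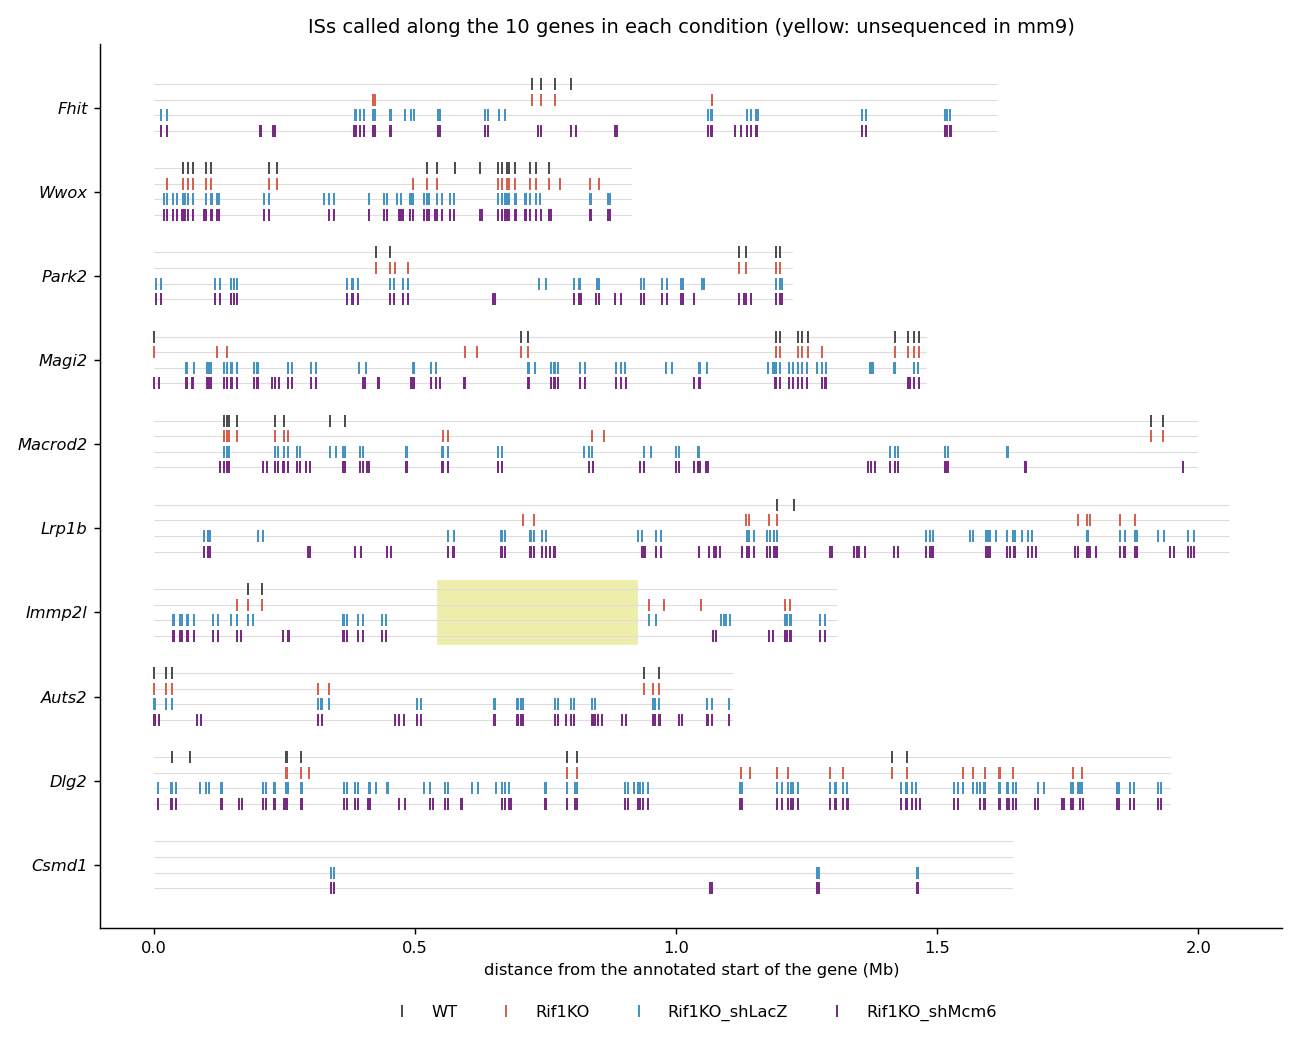
Positions of the ISs called in each condition along the 10 genes, with distance from the annotated start of the gene in Mb on the x axis and 1 row per condition within each gene; each tick is 1 IS. The yellow block marks the 381 kb of Immp2l that are unsequenced in mm9; the long empty part of Macrod2 in WT cells spans 365 to 1910 kb, and Csmd1 has ticks in the hairpin conditions only.

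The ISs lay almost wholly inside introns and rarely near promoters. Of the 125 member ISs in the WT and Rif1KO table, 3 touched an exon and 1 lay within 1 kb of the start of a protein-coding transcript (0.800%, against 6.35% of all ISs of the table). Among the 590 of the hairpin table, 14 touched an exon and 6 were near such a start (1.02% against 4.42%). The other large genes had 2.29% and 1.49% of their ISs near such starts. The promoter IS of the first table belonged to Magi2, and those of the second to Magi2 (1), Auts2 (3) and Dlg2 (2). The densest member IS of the first table, at chr5:133019031-133019704, crossed the annotated start of Auts2, whose full-length transcript there is not classed as protein-coding, and it had a GC content of 74.8%. Its density was 5.88 log2 RPM in WT and 5.83 in Rif1KO cells.

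The member ISs were slightly poorer in GC than all ISs, as were those of the other large genes. Their median GC content was 45.6% in the first table, against 46.9% for all ISs and 44.5% for those of the other large genes. In the hairpin table it was 42.1%, against 44.4% and 42.4%. It varied with the gene, from 39.1% in Immp2l to 50.1% in Wwox in the first table, and the whole spans ranged from 36.4% GC in Lrp1b to 45.8% in Wwox. When each gene was split into 3 equal parts, 38 ISs of the first table lay in the part nearest the start, 34 in the middle and 53 in the last, and the same parts held 202, 161 and 227 ISs of the hairpin table. These sums over genes hide empty parts in the first table, where the part nearest the start held no IS in Park2 and Lrp1b, the middle part none in Immp2l and Auts2, and the last part none in Fhit. In the hairpin table every part of every gene held at least 2 ISs. Of the 125 ISs in the first table, 101 overlapped an IS of the hairpin table (80.8%, against 83.5% of all ISs), and 100 of the 590 ISs of the hairpin table overlapped one of the first (16.9%, against 24.8%).

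The densities of the member ISs were close to those of other ISs. Density is given as log2 RPM, where reads were scaled to 1000000 inside the ISs of each table. In the first table the median of the member ISs was 4.32 in WT and 4.33 in Rif1KO cells, against 4.45 and 4.46 for all ISs. In the hairpin table it was 2.65 with shLacZ and 2.72 with shMcm6, against 2.74 and 2.76. Summed over ISs and divided by length, the 10 genes carried 179.5 RPM per Mb in WT and 188.8 in Rif1KO cells, against 378.9 for the genome, and 267.8 and 277.7 in the hairpin cells against the same genome value. Wwox carried the most, 691 and 698 RPM per Mb in the first pair and 543 and 548 in the second. Csmd1 carried 21.8 RPM per Mb with shLacZ and 23.9 with shMcm6.

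The densest IS of Park2, Wwox and Magi2 was at the same place in both tables. In Park2, at chr17:12223301-12224284 near the end of the gene, the density was 5.64 log2 RPM in WT (167 reads) and 5.69 in Rif1KO cells (192 reads), and the mean of the 2 conditions was the highest of any member IS outside exons. In Rif1KO cells alone an IS of Auts2 outside exons, at chr5:132081099-132081790, was slightly higher, at 5.72 (197 reads). The overlapping IS of the hairpin table, at chr17:12222991-12224612, was at 4.71 with shLacZ (552 reads) and 4.52 with shMcm6 (541 reads). The densest IS of Wwox, at chr8:117505247-117506244, was at 5.39 in WT and 5.58 in Rif1KO cells, and that of Magi2 at 5.53 and 5.30. The differences at these sites, 0.05, 0.19 and -0.23, were within 2 counting SEs of 0 (SEs of 0.15, 0.16 and 0.17). In the hairpin table Wwox was at 4.25 with shLacZ and 4.13 with shMcm6, and Magi2 at 3.96 and 4.21, the latter with a difference of 0.25 and a counting SE of 0.11. The weakest of the densest ISs belonged to Csmd1, at chr8:16073492-16073995, with 2.60 log2 RPM with shLacZ (128 reads) and 2.53 with shMcm6 (136 reads).

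Loss of Rif1 was accompanied by small differences in density at the member ISs. Differences were taken as Rif1KO minus WT on the log2 scale. Changes past 1.5-fold in either direction were counted. Of all ISs in the table, 2.27% were higher and 2.70% lower by more than 1.5-fold. Among the 125 member ISs, 3 were higher (2.40%, Wilson 95% interval 0.820 to 6.82%) and 0 lower (Wilson 95% interval 0 to 2.98%; 3 counts, the limit that a count of 0 allows, would be 2.40%). Both Wilson intervals included the share of all ISs. The 3 ISs lay in Fhit, Dlg2 and Lrp1b, were called in Rif1KO only, and were thinly covered; 90.2% of all higher ISs were called in Rif1KO only. In Fhit, at chr14:10925818-10926096, reads numbered 28 in WT and 51 in Rif1KO, for a log2 difference of 0.71 with a counting SE of 0.34. In Dlg2, at chr7:98945791-98946175, they numbered 37 and 66, and in Lrp1b, at chr2:40630997-40631288, 32 and 55.

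The median log2 fold change of the 125 ISs was 0.08, beside 0.02 for all ISs and 0.06 for the ISs of the other large genes. It was above 0 in 82 member ISs (65.6%), beside 52.5% of all ISs. These values differed with the list in which an IS had been called. The 61 member ISs called in both conditions had a median of -0.02, the same as all such ISs of the table to 2 decimals. The 56 called in Rif1KO only had a median of 0.25 and the 8 called in WT only one of -0.09, directions that the calling itself favours. Over all ISs of the table these medians were 0.18 and -0.25. ISs called in Rif1KO only made up 44.8% of the member ISs, 34.1% of all ISs and 41.9% of those in the other large genes, and ISs called in WT only 6.4%, 14.2% and 13.9%.

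Summing reads over the ISs of a gene gave a ratio for each gene. Over the 10 genes the summed log2 ratio was 0.07 (exact 95% counting interval 0.03 to 0.11), and it was 0.00 in the ISs called in both conditions. Over the ISs of the other large genes it was 0.05 (0.04 to 0.06). All 9 genes with ISs in the table had a ratio above 0, as did 78.2% of the 170 other large genes with ISs. The counting interval lay above 0 in 2 of the 9 and included 0 in the other 7. Lrp1b had 761 reads in WT and 977 in Rif1KO cells, a log2 ratio of 0.21 (0.07 to 0.35), and 10 of its 12 ISs were called in Rif1KO only. Its 1 IS called in both conditions was at -0.06. Immp2l had 560 and 701 reads, a log2 ratio of 0.17 (0.01 to 0.33), with 7 of its 9 ISs called in Rif1KO only. The Immp2l ratio was 0.05 over the ISs called in both conditions, and also 0.05 with 50 kb added on both sides of the gene. Wwox, with 24 ISs and 17 of them called in both, had the smallest ratio, 0.01 (-0.07 to 0.10).

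By the naming rule the denser ISs with the most extreme differences stayed well inside 1.5-fold. The largest difference at or above the median density of the table was 0.35 in Macrod2, at chr2:141060451-141060977, where reads numbered 65 in WT and 92 in Rif1KO cells (counting SE 0.23). The next were 0.34 in Macrod2 at chr2:140452390-140452843 and 0.34 in Magi2 at chr5:20196771-20197336. The most negative was -0.30 in Auts2 at chr5:132996671-132997167, with 95 and 86 reads (counting SE 0.21), followed by -0.25 at the Magi2 promoter and -0.24 in Wwox at chr8:117682928-117683470. Each of these 6 differences was within 2 counting SEs of 0.

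With Mcm6 depleted in Rif1KO cells, most member ISs again differed by less than 1.5-fold. Of all ISs in the hairpin table, 4.80% were higher and 1.51% lower by more than 1.5-fold in Rif1KO_shMcm6 than in Rif1KO_shLacZ cells. Of the 590 member ISs, 36 lay past the threshold upwards (6.10%, 95% interval 4.44 to 8.33%) and 5 downwards (0.847%, 0.363 to 1.97%), and both intervals included the share of all ISs. The 5 lower ISs lay in Wwox, Macrod2, Lrp1b, Immp2l and Auts2, 1 in each. Of the 36 higher ones 9 lay in Lrp1b, 5 each in Macrod2 and Auts2, and 4 in Fhit, and every gene had at least 1. Of these 36, 30 were called in Rif1KO_shMcm6 only (83.3%), a share near the 80.9% of all higher ISs.

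The median log2 fold change of the 590 ISs was 0.02, beside -0.01 for all ISs and 0.04 for the ISs of the other large genes. The 362 ISs called in both conditions had a median of -0.01 (-0.04 for all such ISs of the table), the 153 called with shMcm6 only one of 0.20, and the 75 called with shLacZ only one of -0.16. Over all ISs of the table these last medians were 0.24 and -0.22. ISs called with shMcm6 only made up 25.9% of the member ISs and 23.1% of all ISs, and those called with shLacZ only 12.7% and 11.1%. The summed log2 ratio over the genes was 0.05 (0.04 to 0.07), the same as over the ISs of the other large genes to 2 decimals, and 0.01 over ISs called in both conditions. It was above 0 in 7 of the 10 genes and in 70.0% of the 190 other large genes. The counting interval lay above 0 in 3 genes, Macrod2, Lrp1b and Auts2, included 0 in 7 and lay below it in none.

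Macrod2 had the highest ratio of the pair, 0.17 (0.13 to 0.21), and it was 0.15 over its ISs called in both conditions. It had 59 ISs with a median of 2.61 log2 RPM with shLacZ and 2.83 with shMcm6, 44 of them above 0. Lrp1b had a ratio of 0.17 (0.13 to 0.20) over 94 ISs with medians of 2.44 and 2.61, 67 of them above 0, and 39 of the 94 were called with shMcm6 only. For Lrp1b the ratio was 0.09 over ISs called in both conditions. Auts2 had a ratio of 0.09 (0.04 to 0.13) over 46 ISs, which was -0.01 over those called in both. Park2, Immp2l and Fhit were at -0.04 (-0.09 to 0.00), -0.04 (-0.09 to 0.01) and 0.00 (-0.05 to 0.04), with Immp2l at -0.11 over ISs called in both, and Wwox, Magi2 and Dlg2 were at 0.01, 0.03 and 0.03. Csmd1 was at 0.13 (-0.01 to 0.27) over 8 ISs, of which 1, at chr8:16467008-16467440, had 29 reads with shLacZ and 125 with shMcm6; over the 6 called in both it was -0.06.

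**Figure D3:**
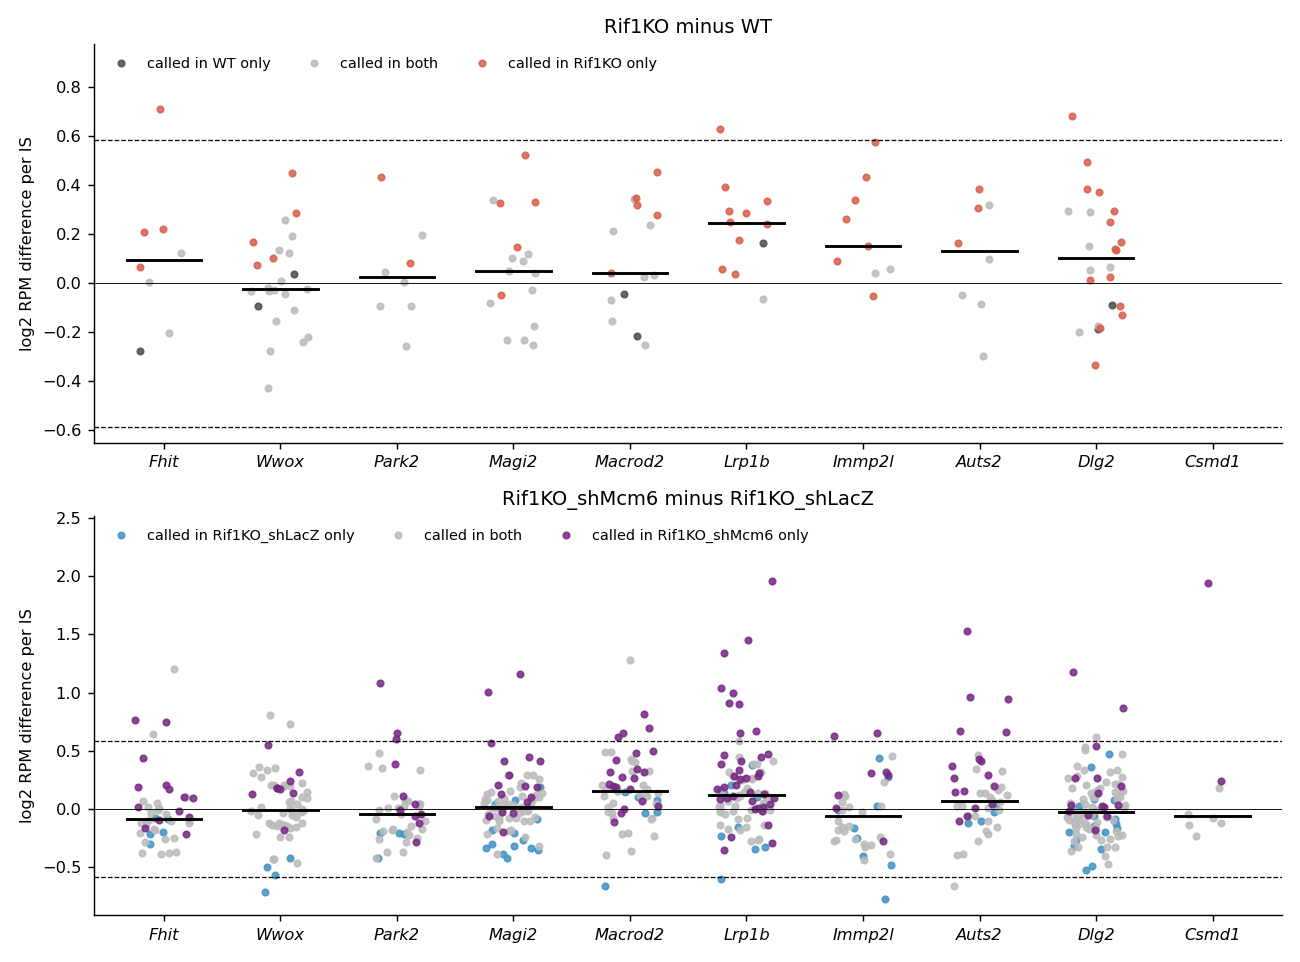
Log2 RPM difference of every member IS (y axis, 1 point per IS) by gene (x axis), Rif1KO minus WT in the upper panel and Rif1KO_shMcm6 minus Rif1KO_shLacZ in the lower, coloured by the list in which the IS was called. Black bars are medians and dashed lines 1.5-fold; 3 of 125 points lie above the upper line in the first panel and none below the lower line, against 36 and 5 of 590 in the second.

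The central 300 bases of 2 of the most extreme ISs at or above the median density of the hairpin table are shown on the plus strand of NCBIM37, because these ISs lie near the upper and lower ends of the differences among the well-covered member ISs. The first, in Fhit 24.3 kb after its start, was 1.201 higher with shMcm6 (127 and 327 reads, counting SE 0.15). The other, in Wwox, was the most negative at -0.46 (188 and 153 reads, counting SE 0.16), and both were called in both conditions. Neither window held the G-run motif, so none of their bases is in capitals. The whole Wwox IS did hold the motif, outside its window, and the whole Fhit IS did not.
Fhit, chr14:11970081-11970380: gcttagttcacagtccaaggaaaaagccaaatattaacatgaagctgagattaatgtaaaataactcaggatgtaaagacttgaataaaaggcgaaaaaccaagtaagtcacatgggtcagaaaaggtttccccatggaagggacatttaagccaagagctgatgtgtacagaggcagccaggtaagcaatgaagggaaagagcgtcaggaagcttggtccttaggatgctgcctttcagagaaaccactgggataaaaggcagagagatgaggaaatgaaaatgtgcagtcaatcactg
Wwox, chr8:117489545-117489844: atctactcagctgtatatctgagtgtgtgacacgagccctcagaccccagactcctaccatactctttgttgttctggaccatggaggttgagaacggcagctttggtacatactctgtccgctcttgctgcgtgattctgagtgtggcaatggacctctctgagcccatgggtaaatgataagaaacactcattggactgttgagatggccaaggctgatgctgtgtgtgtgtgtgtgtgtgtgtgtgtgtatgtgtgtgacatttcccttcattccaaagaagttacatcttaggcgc
The Fhit window was 42.3% GC and the Wwox window 48.3%. The largest difference among these well-covered ISs, 1.28 (164 and 445 reads, counting SE 0.13), belonged to an IS in an intron of Macrod2 that also lies in a smaller gene nested there, and it was called in both conditions. Another IS, in Lrp1b at chr2:41168701-41170057, was 0.90 higher (137 and 287 reads) and was called with shMcm6 only. On the lower side, an IS of Immp2l at chr12:42842340-42842997 was at -0.40 (195 and 165 reads), and the IS that crosses the start of Auts2 at -0.39 (349 and 298 reads).

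The ratios of the flanks had the sign of the gene in some cases and not in others. In the 500 kb on both sides of the genes, WT cells had 8 ISs per Mb and Rif1KO cells 11.6, above the 4.58 and 7.66 inside the genes. In the hairpin cells the flanks had 36.8 with shLacZ and 41.4 with shMcm6. The gene held fewer ISs per Mb than its flanks in 9 of the 10 genes in WT, 8 in Rif1KO, 6 in Rif1KO_shLacZ and 8 in Rif1KO_shMcm6 cells. The exception in WT cells was Wwox, with 21.9 ISs per Mb inside and 2 outside. In the hairpin pair the summed log2 ratio of the Macrod2 flanks was -0.07 (-0.11 to -0.02) against 0.17 inside, that of the Dlg2 flanks -0.07 (-0.12 to -0.03) against 0.03 inside, and that of the Wwox flanks 0.15 (0.10 to 0.20) against 0.01 inside. The flanks of Auts2, at 0.15 (0.11 to 0.19), and of Lrp1b, at 0.06 (0.01 to 0.11), were above 0 like the genes. Those of Immp2l, at -0.07 (-0.11 to -0.03), and Magi2, at -0.05 (-0.09 to -0.01), were below 0, against -0.04 and 0.03 inside. In the first pair the flanks of Magi2 were at -0.15 (-0.25 to -0.05) and the gene at 0.02. No input library was used for the densities, so differences in DNA content between the cells enter these ratios, and their part was not tested.

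**Figure D4:**
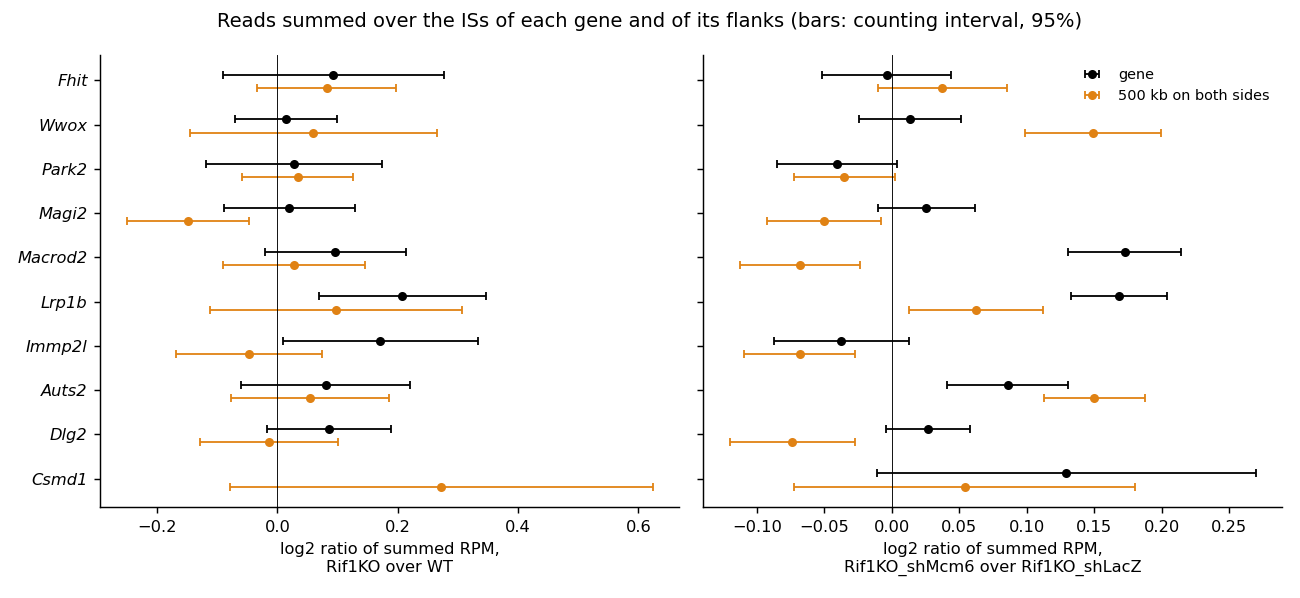
Log2 ratio of reads summed over the ISs of each gene (black) and of the 500 kb on both sides (orange), with exact 95% counting intervals, for Rif1KO over WT (left) and Rif1KO_shMcm6 over Rif1KO_shLacZ (right). The x axes differ in scale; in the right panel Macrod2, Lrp1b and Auts2 have gene intervals above 0, and Csmd1 has no gene value on the left because it held no IS there.

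A further 12 large genes that have been linked to fragile sites served as a second list, described by counts. They held 42 ISs in WT, 69 in Rif1KO, 383 in Rif1KO_shLacZ and 516 in Rif1KO_shMcm6 cells, or 2.90, 4.76, 26.4 and 35.6 per Mb. In WT cells 6 of the 12 held no IS. In Rif1KO_shMcm6 cells the highest was Dpyd, which degrades pyrimidines, at 58.6 ISs per Mb, and the lowest was the X-linked Il1rapl1, a synaptic receptor, at 4.36. In the hairpin pair their summed log2 ratio was 0.12 (0.10 to 0.13), with 10 of 12 genes above 0, and in the first pair it was 0.00 (-0.05 to 0.05), with 6 of 10 genes above 0.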

How the data were processed

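SNS-seq of CH12 cells was analysed in 4 groups of 2 libraries, as the labels give them. Per the labels and the study's methods, the authors trimmed reads with Trim Galore 0.6.4 and cutadapt 2.6, kept unique Bowtie 1.2.3 alignments to mm9, called peaks per replicate with MACS without input, took consensus peaks with BedTools, kept those in ClusterScan clusters and merged the peaks of each contrast. Unique alignment leaves out repeats, and the cluster filter leaves out isolated sites. The deposited densities are log2 RPM, 1 pooled value per condition; their linear values sum to 1000000 per column, and values fall on whole numbers of reads (100% of ISs within 0.1 read), so that reads could be recovered. Other deposited columns hold the number of merged peaks and the authors' category of fold change, which was not used.

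Gene spans came from GENCODE M1 on NCBIM37 (the mm9 assembly), and no IS lay past a chromosome end. Where 1 name had several models, the span ran from the smallest start to the largest end. All 10 genes are named; named ISs were the densest of each gene in each table and the 3 highest and 3 lowest fold changes at or above the table's median density. Chosen after their values were seen were the 3 ISs past 1.5-fold in Rif1KO, 1 IS of Csmd1 with a large difference and 1 of Auts2 set beside the densest of Park2. Member genes, lists and rules were chosen with earlier results of these data known. Without replicate values no test was possible: intervals are exact Poisson, Wilson or Clopper-Pearson at 95% and measure counting error; read recovery and the interval of the summed ratio were tested on simulated data. The sequences of 2 sites are not reported here. Alternatives varied spans, overlap, filters, scale and thresholds. Python 3.11.15, pandas 2.3.3, numpy 2.4.6 and scipy 1.17.1 were used.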

Additional observations from a re-analysis of the deposited data

How the results depend on the processing

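No paired analysis was possible because the processed tables used here hold 1 density per condition, with the replicates pooled. For the same reason fits without each replicate, with a replicate block, or with edgeR, DESeq2 or limma were not run. Of 118 recomputed summary values, 84 stayed within the 95% interval of the reported value, which covers counting error for numbers, shares and ratios and the spread over ISs or genes for medians. Some of the 84 could not move, such as those for Rif1KO against WT without Csmd1, which held no IS there. Over member ISs called in both conditions, the median log2 fold change of Rif1KO against WT turned to -0.018 from 0.077 and the summed log2 ratio went to 0.0025 from 0.073, and for shMcm6 against shLacZ they became -0.011 and 0.015. These ISs gave 0% higher and 0% lower by 1.5-fold in Rif1KO (0.425% and 1.29% of all such ISs), and 1.66% higher and 0.276% lower with shMcm6 (1.30% and 0.751%). For single genes the ratio turned to -0.062 in Lrp1b (Rif1KO) and to -0.014 in Auts2 (shMcm6), went to -0.109 in Immp2l (shMcm6), and stayed within its interval, at 0.147, in Macrod2 (shMcm6). The causes were not tested.

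Leaving out ISs below the lower quartile of density gave a median fold change of 0.038 in Rif1KO, with 0% higher, and 3.70% higher and 0.231% lower with shMcm6. A 2-fold threshold gave 0% higher in Rif1KO (0.0971% of all ISs) and 2.03% higher and 0% lower with shMcm6 (0.969% and 0.0531%). A log2 threshold of 0.32 gave 17.6% higher and 1.6% lower in Rif1KO (12.9% and 11.5% of all ISs) and 15.8% higher and 7.80% lower with shMcm6 (14.4% and 11.5%). Median densities became 4.62 (WT), 4.67 (Rif1KO), 2.88 (shLacZ) and 2.94 (shMcm6) under the density filter, 4.65, 4.69, 2.85 and 2.87 over ISs called in both, and 2.87 (shLacZ) and 2.93 (shMcm6) as log2(RPM + 1). The summed ratio for shMcm6 was 0.019 as a median over ISs, 0.039 without Macrod2 and 0.034 without Lrp1b. Without the gene with most ISs, the number per Mb was 3.48 in WT (Wwox left out) and 25.6 in Rif1KO_shLacZ (Dlg2 left out). Other genes of at least 300 kb had a median of 5.67 ISs per Mb in WT and 9.05 in Rif1KO cells. Using the longest gene model or sequenced bases only, both chosen after seeing the data, kept the number per Mb within its interval. A single IS rests on a median of 67 WT reads in the first table, so 1.5-fold differences are near counting error there.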
